A study of Homo sapiens with 6 samples.

Results

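The replication-dependent histone genes are the protein-coding genes of the HIST1 to HIST4 clusters that encode linker histone H1 and the core histones H2A, H2B, H3 and H4. They were taken from the authors' deposited table by gene type and by gene name. The rule uses no measured value, but the set was chosen with earlier results of these data known. The rule gave 59 of the 27104 genes listed. They carry 58 names, because HIST1H3D stands for a pair of gene models. The HIST1 cluster on chromosome 6 held 45 members, HIST2 on chromosome 1 held 11, HIST3 on chromosome 1 held 2 and HIST4 on chromosome 12 held 1. By type there were 4 H1, 15 H2A, 16 H2B, 12 H3 and 12 H4 genes.

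Their transcripts were measured by RNA sequencing in OVCAR3 cells, an established line from a human ovarian cancer, at passages 20 to 25. Cells carried either an empty vector or a vector meant to overexpress DAB2IP, a Ras GTPase-activating scaffold protein. The labels assign 3 libraries to the empty vector and 3 to DAB2IP O/E, with O/E read as overexpression, and all came from poly-A tail libraries made with a stranded kit. The labels describe transfection in triplicate without naming the vector's promoter, a clone or separate cultures, and p-values therefore reflect the library-to-library spread alone, which may be technical. Values are FPKM, the reads of a gene per kilobase of its model, scaled by a depth factor for each library that need not equal its total reads.

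DAB2IP went against the labels. It was at 7.49, 7.76 and 8.01 FPKM in the empty vector-labelled libraries and at 5.74, 5.02 and 5.73 FPKM in the DAB2IP O/E-labelled libraries. The log2 change was -0.43 (SE 0.06, n = 3 per group, Benjamini-Hochberg adjusted p = 0.00548 by limma). An exact permutation test, 2-sided, gave p = 0.1, the floor of the 20 possible assignments. Every direction below is therefore that of the DAB2IP O/E-labelled libraries against those labelled empty vector. Depth, as whole reads recovered from the FPKM, was 20445867 to 35434533 per library. Of the ovarian epithelial markers, all 7 passed the filter. The keratins KRT8 (141 to 226 FPKM on average) and KRT18 (244 to 398 FPKM) were higher and WT1 (25.0 to 18.1 FPKM) and MECOM (17.5 to 12.5 FPKM) lower. The summed level of the list, most of it keratin and EPCAM, was 625 to 670 FPKM in the empty vector-labelled libraries and 881 to 903 FPKM in the DAB2IP O/E-labelled libraries. A protocol label names adipocytes, but 3 of the 8 adipocyte markers (ADIPOQ, FABP4 and LEP) were not listed, and the others summed to 1.53 to 1.78 FPKM in the empty vector-labelled libraries and 1.01 to 1.83 FPKM in the DAB2IP O/E-labelled libraries. Of the fibroblast markers, 2 of 6 were not listed, and the list summed to 1.93 to 2.33 against 1.99 to 2.48 FPKM. Of the leukocyte markers, 1 of 5 was not listed, and the list summed to 0.599 to 0.720 against 0.550 to 0.643 FPKM. All 4 endothelial markers were listed, and they summed to 0.628 to 0.774 against 0.745 to 0.857 FPKM. The part of these levels in the histone results was not tested.

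Core histones H2A, H2B, H3 and H4 form the octamer that DNA wraps around in a nucleosome, and linker H1 binds where the DNA enters and leaves it. The replication-dependent genes are transcribed in S phase, when new DNA needs packaging. Most of their mRNAs carry no poly-A tail and instead end just after a conserved stem-loop bound by the protein SLBP, while some members can also be read through to a downstream poly-A site. A poly-A library is not made to capture the tailless form, so the levels below are those of the transcripts such a library holds. In bulk RNA, fewer cells in S phase and less RNA per cell cannot be told apart.

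The stem-loop is the sequence that sets these genes apart, and it was looked for in the annotated transcripts (GENCODE release 29, GRCh38, 5′ to 3′, transcript strand only) by the pattern GG, any 2 bases, CTT, any base, T, any base, AG, any base and GCC. It was found in 32 of the 59 members and in 72 of 58721 annotated genes in all, or 0.123%. A model that stops before the stem-loop cannot show it, so absence from the annotated transcripts is not absence from the gene. The forms found are shown with the paired stem in capitals and the 4-base loop in lower case, each named by a member that carries it.

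HIST1H2BH: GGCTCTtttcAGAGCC
HIST1H4E: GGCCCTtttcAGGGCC
HIST1H2BC: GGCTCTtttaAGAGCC
HIST2H4A: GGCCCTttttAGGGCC
HIST1H3E: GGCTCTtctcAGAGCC
HIST1H2AG: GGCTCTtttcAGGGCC

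The form of HIST1H2BH was the commonest, with 18 members that also include HIST1H3H, HIST2H2AA3 and HIST2H2AA4. The form of HIST1H4E was found in 5 members and that of HIST2H4A in 3, all of them H4 genes. The form of HIST1H2BC was found in 4 members. HIST1H3E and HIST1H2AG each had a form of their own. In that of HIST1H2AG, 5 of the 6 stem pairs are A with T or G with C, and the remaining position has T facing G.

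Few histone genes passed the test between the groups. Of the 59 members, 28 averaged 1 FPKM or more and were tested, and 3 of those passed (adjusted p under 0.05), which is 10.7%. Among all 14761 genes tested, 18.5% passed, 9.29% higher and 9.17% lower in the DAB2IP O/E-labelled libraries. HIST2H2AA3 was higher, and HIST1H2BH and HIST1H3H were lower. HIST1H2BH alone passed without empty vector-labelled replicate 2, without DAB2IP O/E-labelled replicate 1 and without replicate 3. The log2 changes of the 28 ran from -0.68 to 0.51 with a median of 0.02, beside a median of -0.00042 over all genes tested, and 15 were positive and 13 negative. At an unadjusted p under 0.05 there were 8 of 28, 4 in each direction, beside 35.2% of all genes tested. The groups did not overlap for 7 of the 28, 4 of them lower, beside 40.4% of all genes tested.

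**Figure D1:**
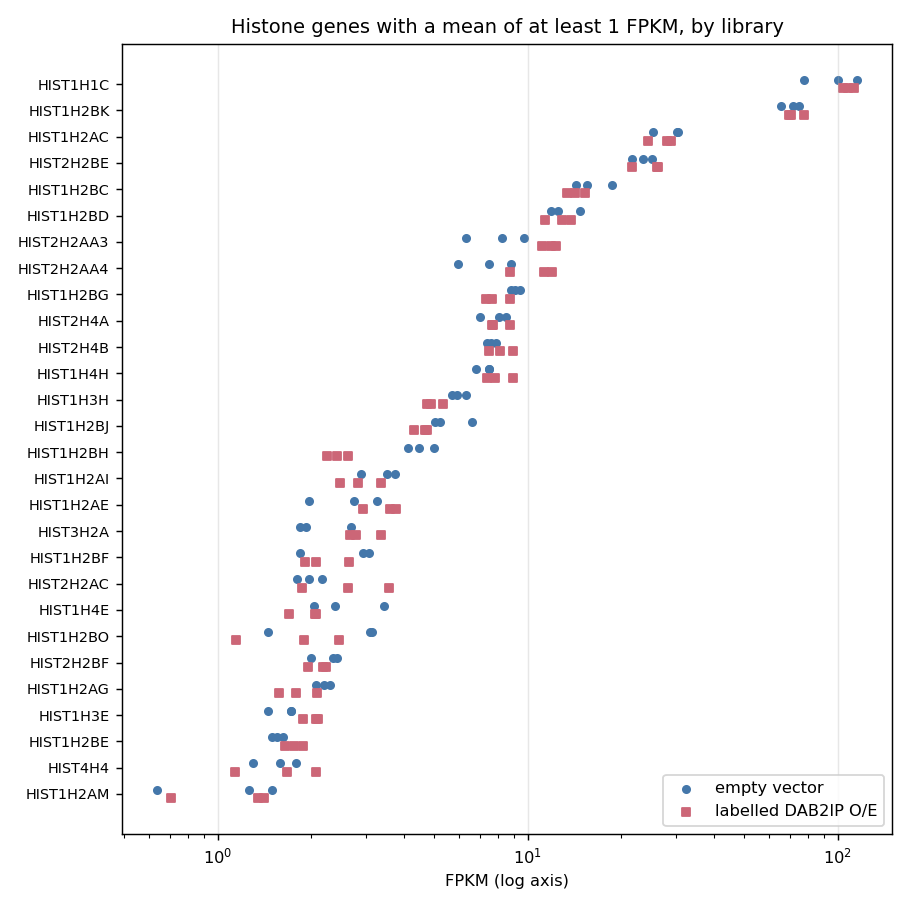
FPKM of the 28 members with a mean of at least 1 FPKM (log axis), with a circle for each empty vector-labelled library and a square for each DAB2IP O/E-labelled library. Levels ran from 1.14 FPKM on average for HIST1H2AM to 103 FPKM for HIST1H1C. Circles and squares are mixed for most genes but do not overlap for 7 of the 28, HIST1H2BH among them.

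**Figure D2:**
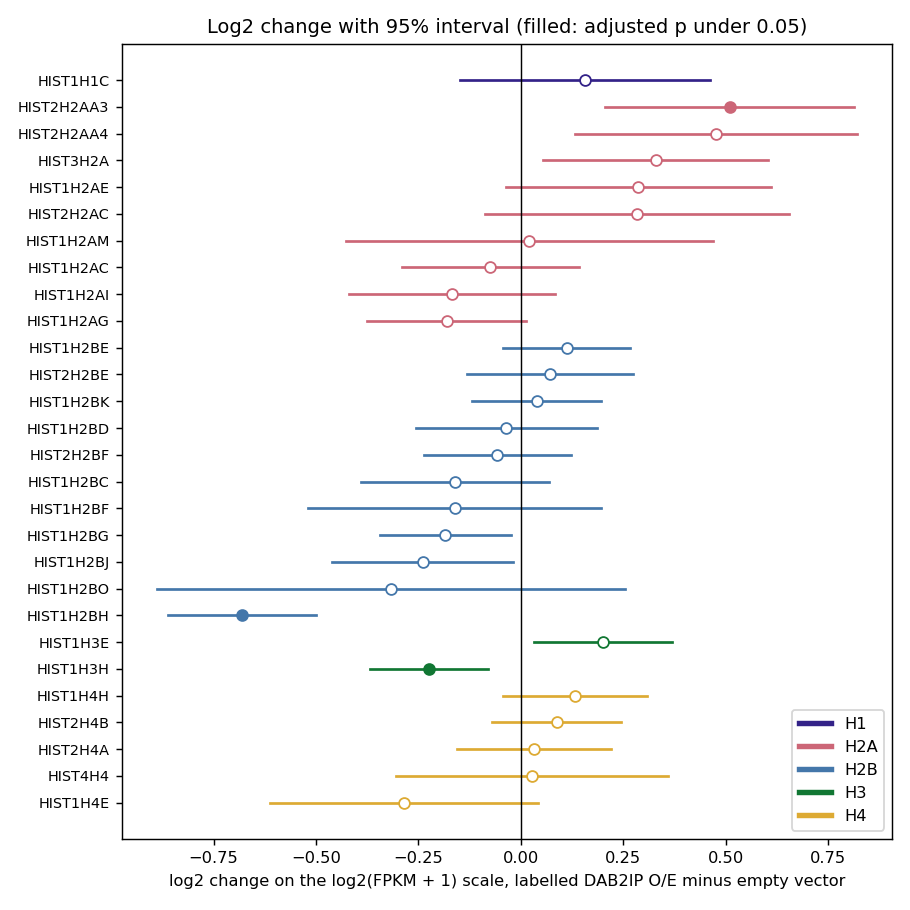
Log2 change on the log2(FPKM + 1) scale, DAB2IP O/E-labelled minus empty vector-labelled libraries (3 each), as a point with its 95% interval, coloured by histone type. Filled points passed at an adjusted p under 0.05: HIST1H2BH at -0.68, HIST1H3H at -0.22 and HIST2H2AA3 at 0.51.

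Linker histone H1 compacts chromatin between nucleosomes, and HIST1H1C, which encodes subtype H1.2, was alone among the 4 H1 genes in passing the filter. It was also the member with the highest level. HIST1H1C was at 78.0, 100.2 and 115.7 FPKM in the empty vector-labelled libraries and at 103.7, 112.6 and 107.5 FPKM in the DAB2IP O/E-labelled libraries. The first empty vector-labelled library was the lowest and the third the highest of all 6, so the groups overlapped. The log2 change was 0.16 (95% interval -0.15 to 0.46, Benjamini-Hochberg adjusted p = 0.434 by limma). It was 0.0027 without the first empty vector-labelled library and 0.28 without the third. HIST1H1D, HIST1H1E and the testis gene HIST1H1T had means of 0.174 to 0.427 FPKM.

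Among the H2A genes, which pair with H2B in the nucleosome, 9 of 15 passed the filter and 1 was called, HIST2H2AA3. HIST2H2AA3 was at 6.30, 8.26 and 9.70 FPKM in the empty vector-labelled libraries and at 11.9, 11.1 and 12.4 FPKM in the DAB2IP O/E-labelled libraries. All DAB2IP O/E-labelled libraries were above all empty vector-labelled libraries, which themselves were spread widely. The mean rose from 8.09 ± 1.71 to 11.8 ± 0.65 FPKM (SD, n = 3), a log2 change of 0.51 (SE 0.13, Benjamini-Hochberg adjusted p = 0.0353 by limma). Over the alternatives its Benjamini-Hochberg adjusted p by limma ran from 0.0130 to 0.113. The call was lost without empty vector-labelled replicate 2 (adjusted p = 0.0803 by limma), without DAB2IP O/E-labelled replicate 1 (0.101), replicate 2 (0.0683) or replicate 3 (0.113), and with no filter (0.0719).

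HIST2H2AA3 (chr1:149842188-149842736, minus strand, GRCh38) has a near-identical copy in HIST2H2AA4 (chr1:149851061-149851624, plus strand), 8324 bases away. Both encode the same type of core H2A. Of the 50-base windows of HIST2H2AA3, 100% also occur in HIST2H2AA4, and 97.1% of those of HIST2H2AA4 also occur in other genes. The split of reads between them is therefore uncertain. HIST2H2AA4 was at 5.95, 7.47 and 8.82 FPKM in the empty vector-labelled libraries and at 11.3, 8.78 and 12.0 FPKM in the DAB2IP O/E-labelled libraries. The groups touched, with the second DAB2IP O/E-labelled library just below the third empty vector-labelled library. The log2 change of 0.48 (SE 0.15) did not pass, with a Benjamini-Hochberg adjusted p of 0.0630 by limma and a range of 0.0331 to 0.182 over the alternatives. Summed, the pair was at 12.3, 15.7 and 18.5 FPKM in the empty vector-labelled libraries and at 23.2, 19.9 and 24.3 FPKM in the DAB2IP O/E-labelled libraries, with no overlap. Fitted as 1 gene, an alternative chosen after seeing the data, the pair had a log2 change of 0.52 and a Benjamini-Hochberg adjusted p of 0.0422 by limma.

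The other H2A genes did not pass. HIST1H2AC had the highest level of the type, at 25.3, 30.6 and 30.4 FPKM in the empty vector-labelled libraries and at 24.5, 29.01 and 28.2 FPKM in the DAB2IP O/E-labelled libraries. The groups overlapped, with a log2 change of -0.07 (95% interval -0.29 to 0.14). HIST3H2A, the highest member of HIST3, was at 1.85, 1.92 and 2.68 FPKM in the empty vector-labelled libraries and at 2.67, 2.78 and 3.37 FPKM in the DAB2IP O/E-labelled libraries. The groups overlapped only through the third empty vector-labelled library. Its log2 change was 0.33 (95% interval 0.06 to 0.60) with a Benjamini-Hochberg adjusted p of 0.0911 by limma, which ran from 0.0248 to 0.254 over the alternatives. It passed without empty vector-labelled replicate 3 (adjusted p = 0.0248 by limma). Of the remaining 5, HIST1H2AE and HIST2H2AC had positive log2 changes of 0.29 and 0.28, HIST1H2AI and HIST1H2AG had values of -0.17 and -0.18, and HIST1H2AM was at 0.02. The value of HIST1H2AE was 0.14 without the first empty vector-labelled library, and that of HIST2H2AC was 0.12 without DAB2IP O/E-labelled replicate 3 and 0.45 without replicate 2. All 4 tested H2A genes outside HIST1 had positive log2 changes and 2 of 5 within HIST1 did, a count in which HIST2H2AA3 and HIST2H2AA4 share reads. HIST2H2AC shares 30.5% of its windows with other genes, HIST2H2AA3 among them. HIST1H2AI shares 62.3%, mainly with HIST1H2AJ. HIST1H2AM, on 73 reads in all, shares 86.3%, and 88.0% of its exonic bases lie in HIST1H3J on the same strand.

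H2B, the partner of H2A, had the most tested members, 11 of 16, and the largest fall among the tested histone genes. HIST1H2BH was at 4.45, 4.97 and 4.11 FPKM in the empty vector-labelled libraries and at 2.63, 2.42 and 2.26 FPKM in the DAB2IP O/E-labelled libraries. All 3 DAB2IP O/E-labelled libraries were well below the lowest empty vector-labelled library. The mean fell from 4.51 ± 0.43 to 2.44 ± 0.19 FPKM (SD, n = 3), to 0.54 of its level in the empty vector-labelled libraries. On the log2(FPKM + 1) scale the change was -0.68 (SE 0.08, 95% interval -0.86 to -0.50, Benjamini-Hochberg adjusted p = 0.0025 by limma), smaller than the ratio of the means. The values rest on 183, 226 and 240 reads in the empty vector-labelled libraries and 195, 144 and 117 reads in the DAB2IP O/E-labelled libraries. It was called under every alternative in which it was tested, with Benjamini-Hochberg adjusted p by limma from 8.20e-05 to 0.0169; a filter of 5 FPKM left it untested. HIST1H2BH lies at chr6:26251651-26253710 on the plus strand (GRCh38), has 1 exon, and shares none of its windows with another gene.

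The other 10 tested H2B genes did not pass. HIST1H2BK had the highest level of the type, at 65.8, 71.7 and 74.8 FPKM in the empty vector-labelled libraries and at 69.5, 70.7 and 78.1 FPKM in the DAB2IP O/E-labelled libraries. The groups overlapped, with a log2 change of 0.04 (95% interval -0.12 to 0.20). Of its windows, 74.1% also occur in other genes, H2BFS among them. HIST2H2BE, the highest member of HIST2, was at 21.7, 25.1 and 23.6 FPKM in the empty vector-labelled libraries and at 21.8, 26.1 and 26.4 FPKM in the DAB2IP O/E-labelled libraries. These overlapped as well, with a log2 change of 0.07 (95% interval -0.13 to 0.27). HIST1H2BJ and HIST1H2BG had groups that did not overlap and log2 changes of -0.24 and -0.18, but their Benjamini-Hochberg adjusted p by limma were 0.117 and 0.103. HIST1H2BE also did not overlap, at 1.49 to 1.63 FPKM against 1.65 to 1.88 FPKM, with a log2 change of 0.11. Of its exonic bases, 28.2% lie opposite the gene AL353759.1, and whether counting used the strand is not given in the sources used here. The remaining 5 (HIST1H2BC, HIST1H2BD, HIST1H2BF, HIST1H2BO and HIST2H2BF) had negative log2 changes of -0.32 to -0.04. In all, 8 of the 11 tested H2B genes had negative values and their median was -0.16.

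**Figure D3:**
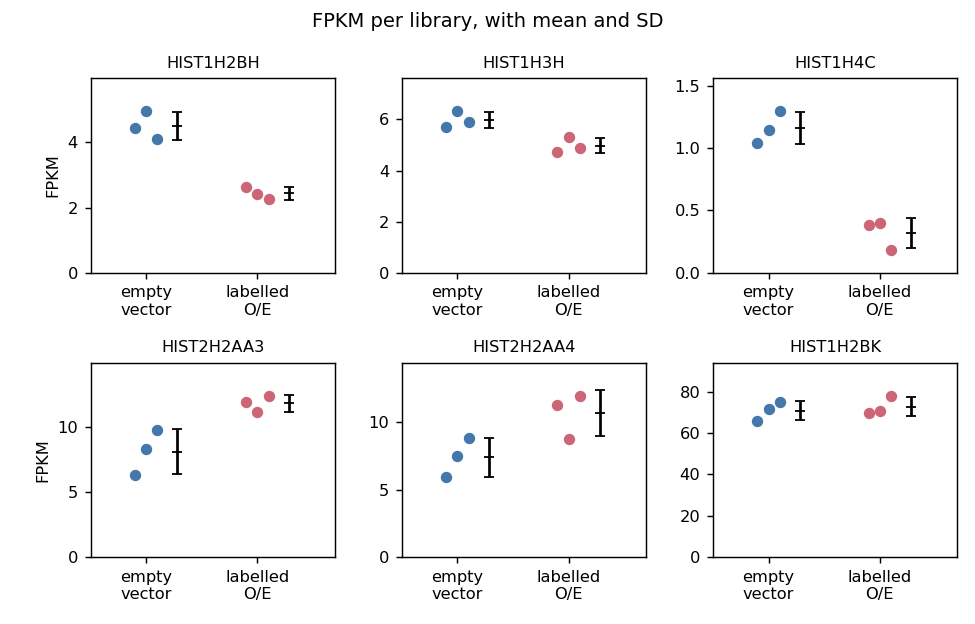
FPKM in each library (points, on linear axes that start at 0) with the group mean and SD (bars, n = 3), for the called members, HIST2H2AA4, HIST1H2BK and HIST1H4C. Groups are apart for HIST1H2BH (4.11 to 4.97 against 2.26 to 2.63 FPKM), HIST1H3H, HIST1H4C and HIST2H2AA3, touch for HIST2H2AA4 and are mixed for HIST1H2BK.

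H3, which pairs with H4 and carries many of the known regulatory modifications, had low levels throughout, and only 2 of 12 genes passed the filter. HIST1H3H was the highest. HIST1H3H was at 5.71, 6.34 and 5.90 FPKM in the empty vector-labelled libraries and at 4.74, 5.32 and 4.88 FPKM in the DAB2IP O/E-labelled libraries. The groups were apart, and the second DAB2IP O/E-labelled library lay nearest to the empty vector-labelled libraries. The mean fell from 5.98 ± 0.32 to 4.98 ± 0.30 FPKM (SD, n = 3), a log2 change of -0.22 (SE 0.06, Benjamini-Hochberg adjusted p = 0.0440 by limma). Its adjusted p by limma ran from 0.0324 to 0.145 over the alternatives. The call was lost without empty vector-labelled replicate 1 (adjusted p = 0.0520 by limma), replicate 2 (0.142) or replicate 3 (0.0740), and without DAB2IP O/E-labelled replicate 1 (0.127) or replicate 3 (0.145). It was also lost with no filter (0.0733) and, at 0.0973 over the same genes, when limma-voom was run on recovered reads. HIST1H3H lies at chr6:27810064-27811300 on the plus strand (GRCh38) and has 1 exon. HIST1H3E was at 1.72, 1.46 and 1.73 FPKM in the empty vector-labelled libraries and at 1.89, 2.08 and 2.11 FPKM in the DAB2IP O/E-labelled libraries. Its groups did not overlap either, in the other direction, and its log2 change of 0.20 had a Benjamini-Hochberg adjusted p of 0.0944 by limma.

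H4 genes all encode the same core protein, and none of the 5 tested of 12 passed. At an unadjusted p under 0.05 there was also none. HIST2H4A was the highest, at 8.07, 7.03 and 8.50 FPKM in the empty vector-labelled libraries and at 8.79, 7.68 and 7.71 FPKM in the DAB2IP O/E-labelled libraries. The groups overlapped, with a log2 change of 0.03 (95% interval -0.16 to 0.22). Of its windows, 97.5% also occur in other genes, above all the copy HIST2H4B, whose log2 change was 0.09. HIST4H4, alone in its cluster, was at 1.30, 1.79 and 1.59 FPKM in the empty vector-labelled libraries and at 1.13, 1.68 and 2.08 FPKM in the DAB2IP O/E-labelled libraries. The lowest and the highest value were both in the latter group, and the log2 change was 0.03 (95% interval -0.31 to 0.36). HIST1H4H was at 0.13 and HIST1H4E at -0.28 on the log2 scale.

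By cluster, 19 of the 45 HIST1 genes were tested, with 2 lower, 0 higher and a median log2 change of -0.16. In HIST2, 7 of 11 were tested, with 1 higher, 0 lower and a median of 0.09. The HIST1 genes fall into a group at chr6:26020490-26285638, where 5 of 12 tested members had positive and 7 negative log2 changes (median -0.05), and a group at chr6:27125897-27893843, where 2 of 7 were positive and 5 negative (median -0.18). HIST1H2BH lies in the former and HIST1H3H in the latter. Among the 32 other genes tested within 1 Mb of HIST1, 0 passed at an adjusted p under 0.05 by limma, 4 had an unadjusted p under 0.05, and the median log2 change was -0.07. Among the 33 other genes around HIST2, 4 were higher and 2 lower, 8 had an unadjusted p under 0.05, and the median was 0.01. Among the 16 around HIST3, 4 were higher and 0 lower by limma, 8 had an unadjusted p under 0.05, and the median was 0.18, beside the 0.33 of HIST3H2A. Among the 7 around HIST4, 2 were higher and 0 lower, 2 had an unadjusted p under 0.05, and the median was -0.03. Of all genes tested, 18.5% passed (9.29% higher and 9.17% lower) and 35.2% had an unadjusted p under 0.05. Whether position has a part in the histone values was not tested.

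The summed histone transcript level overlapped between the groups. All 59 members together came to 319, 366 and 383 FPKM in the empty vector-labelled libraries and to 356, 368 and 379 FPKM in the DAB2IP O/E-labelled libraries. The first empty vector-labelled library was the lowest, and the means of 356 ± 33.5 and 368 ± 11.6 FPKM (SD, n = 3) differed by less than the spread between the empty vector-labelled libraries. H2B made up 41.9% of the sum, H1 28.7%, H2A 17.6%, H4 8.55% and H3 3.23%. HIST1H1C and HIST1H2BK alone made up 48.3%. Summed H3 was at 12.1, 12.6 and 11.8 FPKM in the empty vector-labelled libraries and at 11.4, 10.8 and 11.4 FPKM in the DAB2IP O/E-labelled libraries, with no overlap. Without HIST1H3H the H3 sums were 6.39, 6.29 and 5.93 against 6.64, 5.52 and 6.48 FPKM, which overlap. Summed HIST2 was at 55.2, 60.5 and 64.2 FPKM in the empty vector-labelled libraries and at 68.3, 66.5 and 74.0 FPKM in the DAB2IP O/E-labelled libraries, also with no overlap. Without HIST2H2AA3 and HIST2H2AA4 the HIST2 sums were 42.9, 44.8 and 45.7 against 45.1, 46.7 and 49.7 FPKM, which overlap. Summed H4 was 31.2 ± 0.17 and 30.7 ± 0.41 FPKM. Sums over members were described and not tested.

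**Figure D4:**
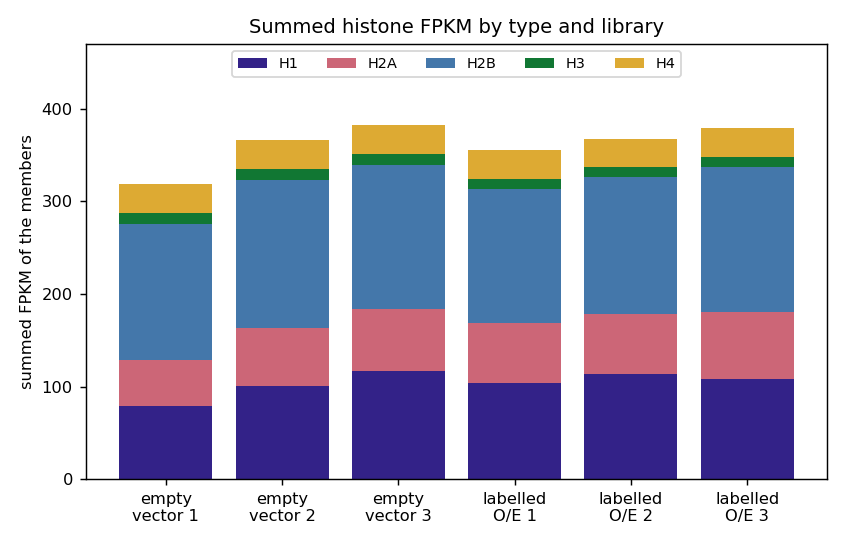
Summed FPKM of the members in each library, stacked by histone type, with the empty vector-labelled libraries on the left and those labelled DAB2IP O/E on the right. Totals ran from 319 to 383 FPKM in the empty vector-labelled libraries and from 356 to 379 FPKM in the DAB2IP O/E-labelled libraries, and most of each bar is H2B and H1.

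The gene models behind these levels differ in how they end. FPKM were divided by the full exonic length of the annotated model, so the model sets the level of a gene. HIST1H1C and HIST1H2BK have models of 642 and 381 bases, both multiples of 3, as a model of the coding sequence alone would be. HIST2H2BE has a model of 2194 bases with 1729 bases after the stem-loop. HIST2H2BE had 8460 reads over the 6 libraries and HIST1H2BK 4390, the reverse of their order in FPKM. In 27 members no annotated transcript held the stem-loop, and 23 of these had lengths that are multiples of 3. So had 3 of the 8 and 9 of the 24 members in the sets below, so such a length alone does not mark a coding model. The median level of the 27 was 0.481 FPKM, and 6 of them were tested, with 0 called by limma and 1 at an unadjusted p under 0.05. Of the 8 members in which every annotated transcript with the stem-loop ends at most 100 bases after it, 5 were tested and 1, HIST2H2AA3, was called, with 35 bases after it. Of the 24 with at least 1 transcript that runs further, 17 were tested and 2 were called, HIST1H2BH with 1640 bases and HIST1H3H with 769 bases after the stem-loop. Their median level was 2.24 FPKM. HIST1H1C, HIST1H2AC, HIST1H2BD, HIST1H2BK and HIST2H2BE, which textbooks give as also made in polyadenylated form, held 66.2% of the summed FPKM, and 0 of these 5 passed by limma, none of them at an unadjusted p under 0.05 either.

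Histone promoters share short motifs for the factors that drive them, and those of the called members are shown. They are the 250 bases before the start that RefSeq gives (GRCh38.p14), 5′ to 3′ on the gene's strand. Capitals mark CCAAT (or its reverse ATTGG), the TATA box TATAAA (or TTTATA) and the octamer ATTTGCAT (or ATGCAAAT) that the factor OCT1 binds in H2B promoters. The windows are chr6:26251364-26251613 (plus strand) for HIST1H2BH, chr6:27809801-27810050 (plus strand) for HIST1H3H and chr1:149842751-149843000 (minus strand) for HIST2H2AA3.

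HIST1H2BH: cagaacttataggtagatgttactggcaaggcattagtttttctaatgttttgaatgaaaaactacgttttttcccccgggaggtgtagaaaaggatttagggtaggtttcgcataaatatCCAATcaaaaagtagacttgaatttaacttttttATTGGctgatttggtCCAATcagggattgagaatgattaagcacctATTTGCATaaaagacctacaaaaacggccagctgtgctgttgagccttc
HIST1H3H: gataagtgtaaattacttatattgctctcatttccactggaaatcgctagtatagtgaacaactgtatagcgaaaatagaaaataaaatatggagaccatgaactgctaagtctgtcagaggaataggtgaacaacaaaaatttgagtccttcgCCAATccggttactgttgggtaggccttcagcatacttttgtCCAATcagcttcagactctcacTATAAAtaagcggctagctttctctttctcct
HIST2H2AA3: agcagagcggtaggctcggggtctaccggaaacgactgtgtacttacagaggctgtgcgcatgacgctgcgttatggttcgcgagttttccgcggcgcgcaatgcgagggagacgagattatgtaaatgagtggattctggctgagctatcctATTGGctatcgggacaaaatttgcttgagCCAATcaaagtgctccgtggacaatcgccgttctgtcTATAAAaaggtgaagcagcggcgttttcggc

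The window of HIST1H2BH held 3 CCAAT motifs, 1 octamer and 0 of the TATAAA motif. Those of HIST1H3H and HIST2H2AA3 each held 2 CCAAT motifs, 1 TATAAA and 0 octamers. Over the whole 300-base window that RefSeq's table gives, 250 before and 50 after the start, HIST2H2AA4 matched HIST2H2AA3 at 299 of 299 aligned bases. A promoter sequence was found for 54 of the 59 members. CCAAT was present in 45 of the 54, beside 33.0% of 27305 promoters in all. It was in all 4 H1, 14 H2A, 16 H2B and 10 H3 promoters and in 1 of 10 H4 promoters. TATAAA was present in 35 of 54 beside 11.1% of all promoters, and the octamer in 22 of 54 beside 1.66%. The octamer was in 12 of 16 H2B and 9 of 14 H2A promoters, in 1 of 10 H3 promoters and in none of the 4 H1 and 10 H4 promoters. A match is a description of the letters in this window.

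The 31 members under the filter had means of 0.0935 to 0.818 FPKM and rest on 7 to 311 reads over the 6 libraries, with a median of 32. Of these, 23 had fewer than 60 reads, and 5 were at 0 in at least 1 library. Just above the filter were HIST1H2AM at 1.14 and HIST4H4 at 1.60 FPKM. Just below it were HIST1H3G at 0.818 and the longer model of HIST1H3D at 0.772 FPKM. The groups did not overlap for 6 of the 31, beside 22% of all genes under the filter. HIST1H4C, singled out after its values were seen, was at 1.04, 1.15 and 1.30 FPKM in the empty vector-labelled libraries and at 0.384, 0.398 and 0.183 FPKM in the DAB2IP O/E-labelled libraries. Every DAB2IP O/E-labelled library was lower, on only 9, 11 and 16 reads against 6, 5 and 2 reads. With no filter, HIST1H4C passed with a log2 change of -0.71 (Benjamini-Hochberg adjusted p = 0.00963 by limma). HIST1H2BB also passed with no filter, at 0.395, 0.119 and 0.278 FPKM against 0.730, 0.636 and 0.730 FPKM, on 31 reads in all. With no filter 8.71% of all genes passed.

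The authors' deposited table gave an adjusted p-value for 39 of the 59 members, and 4 of these were under 0.05, beside 19% of all genes with such a value. In the authors' deposited table, with its sign turned to the direction used here, HIST1H2BH had a log2 fold change of -0.88 (adjusted p = 2.55e-07) and HIST1H4C one of -1.83 (adjusted p = 0.0441). Fold changes there are not on the log2(FPKM + 1) scale of the -0.68 for HIST1H2BH and -0.71 for HIST1H4C above. With a pseudocount of 0.1 in place of 1, the change of HIST1H2BH by limma was -0.86. The authors' deposited table gave HIST2H2AA3 a log2 fold change of 0.53 (adjusted p = 0.0205) and HIST2H2AA4 one of 0.51 (adjusted p = 0.0401). HIST1H3H had an adjusted p-value of 0.229 in the authors' deposited table.

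The genes that make, handle and load histones were set beside the members, from lists written from textbook knowledge. The list called histone mRNA processing also holds genes that act in histone transcription, among them CCNE1, CDK2 and NPAT. Of its 32 genes tested, 2 were higher and 4 lower, with a median log2 change of -0.06. The 4 lower genes were CCNE1, CDK2, NPAT and SNRPF, of which CCNE1, CDK2 and NPAT act in transcription. The 2 higher were MIF4GD and, outside the naming rule, LSM10 (log2 change 0.19, Benjamini-Hochberg adjusted p = 0.0495 by limma). At an unadjusted p under 0.05 there were 10 lower and 2 higher, beside 35.2% of all genes tested. CCNE1, the cyclin that with CDK2 activates histone transcription, was at 42.5 ± 1.06 FPKM in the empty vector-labelled libraries and 33.1 ± 1.30 FPKM in the DAB2IP O/E-labelled libraries (SD, n = 3; log2 change -0.35). NPAT, its substrate and the activator of histone genes, was at 4.09 ± 0.15 and 3.31 ± 0.11 FPKM (log2 change -0.24). SNRPF, a ring protein shared with the U7 particle that trims histone mRNA, had a log2 change of -0.22. MIF4GD, which binds SLBP and takes part in translating histone mRNA, rose from 5.39 ± 0.75 to 8.67 ± 0.20 FPKM (log2 change 0.60). SLBP itself, named for its role and outside the naming rule, was at 24.4, 24.6 and 23.6 FPKM in the empty vector-labelled libraries and at 22.7, 24.0 and 23.2 FPKM in the DAB2IP O/E-labelled libraries. These overlapped, with a log2 change of -0.05 that did not pass.

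Replacement histones are made outside S phase from polyadenylated mRNA, and of 12 tested, 1 was higher and 3 lower (median log2 change -0.07). H2AFV, an H2A.Z gene, had a log2 change of -0.28, the linker gene H1F0 one of -0.18 and the centromeric H3 gene CENPA one of -0.17. H2AFY2, a macroH2A gene, had one of 0.19. The calls of H2AFY2 and CENPA were lost whichever of the 6 libraries was left out, with Benjamini-Hochberg adjusted p by limma of up to 0.141 and 0.105, and that of H1F0 was lost without 5 of them. Histone chaperones bind histones and take them to or from DNA, and the list is not limited to those of replication. Of the 20, 8 were lower and 0 higher by limma (median -0.19). At an unadjusted p under 0.05 there were 12 lower and 0 higher. ASF1B, a chaperone of H3 and H4, had a log2 change of -0.26, NASP, which keeps a soluble H3 and H4 pool, one of -0.36, SUPT16H, of the FACT complex, one of -0.25, and the H2A.Z chaperone ANP32E one of -0.24. Of 37 S phase genes, 15 were lower and 0 higher by limma (median -0.16), and at an unadjusted p under 0.05 there were 22 lower and 1 higher. TYMS, which makes thymidylate, fell from 97.8 ± 2.57 to 61.4 ± 1.61 FPKM (SD, n = 3; log2 change -0.66), and CDC45 and CDC6 had log2 changes of -0.38 and -0.28. Among all genes tested, 9.17% were lower and 9.29% higher by adjusted p. At an unadjusted p under 0.05 the share was 35.2%, both directions together. The counts moved when 1 library was left out. Without the third DAB2IP O/E-labelled library, 0 chaperones, 0 replacement genes and 3 S phase genes passed, beside 956 of all genes. Without the second empty vector-labelled library, 0 chaperones, 1 replacement gene and 5 S phase genes passed, beside 1210 of all genes. Either step left 2 histone mRNA processing genes. Without DAB2IP O/E-labelled replicate 1 there were 3 chaperones, 1 replacement gene, 6 S phase genes and 3 processing genes, and without replicate 2 there were 3, 1, 8 and 3 of these. Without the first empty vector-labelled library 4 chaperones, 2 replacement genes and 10 S phase genes passed. Leaving out the third gave 9 chaperones, 1 replacement gene and 9 S phase genes. Over the steps that each left out 1 library, 956 to 2731 of all genes passed. Without the third DAB2IP O/E-labelled and the second empty vector-labelled library the medians were below 0, at -0.16 and -0.20 for the chaperones and at -0.15 and -0.16 for the S phase genes. Of the other genes named here, CCNE1, MIF4GD, TYMS and CDC45 passed whichever library was left out. NPAT lost its call without 5 of the 6, and SNRPF, NASP and ANP32E without 4. ASF1B and SUPT16H lost theirs without 2, and H2AFV and CDC6 without 1. For CDK2 and LSM10 these steps are not given. Whether these levels have a part in the histone results was not tested.

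**Figure D5:**
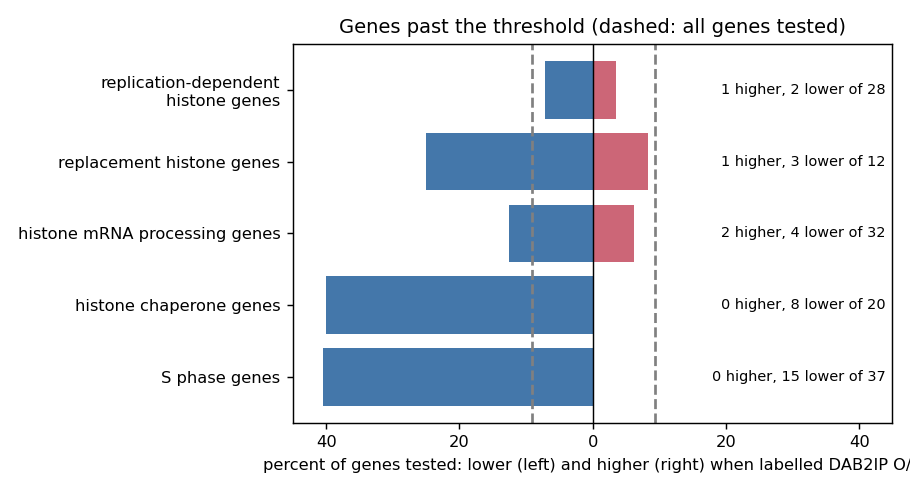
Percent of the genes tested in each list that passed at an adjusted p under 0.05, lower to the left and higher to the right in the DAB2IP O/E-labelled libraries, with dashed lines at the share over all genes tested (9.17% and 9.29%). Of the histone genes, 2 were lower and 1 higher, while 8 chaperone and 15 S phase genes were lower and 0 higher. The histone mRNA processing list includes genes of histone transcription.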

How the data were processed

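Poly-A RNA of OVCAR3 cells was sequenced, 3 libraries per vector. The authors deposited FPKM for each gene in each library, and their own comparison. Per the file headers, the latter has for each gene the average normalised count (a signal), the log2 fold change and its standard error, the statistic of the test (a score), the p-value and the adjusted p-value. Per the submitters' processing notes, which give no roles, the tools were DESeq2 1.12.4, R 3.3.1, Bowtie, TopHat2 2.1.1 and Trimmomatic 0.32, and the builds hg19 and GRCh38.p5. For the counter, its annotation and its strand setting, the sources used here give nothing. GENCODE release 29 holds 58 of the 59 members at the same version, and all 25344 genes so matched have the same coordinates there. Whole reads were recovered from the deposited FPKM and mean normalised counts for 100% of values (tolerance 0.01), and the gene length this implied was the union exon length in all 25344 matched genes. The sign of the deposited log2 fold change was turned, since in 8277 strongly expressed genes it had the empty vector on top.

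Groups were compared with limma 3.58.1 under R 4.3.3 (lmFit, eBayes with a trend, 2-sided) on log2(FPKM + 1) over the 14761 genes averaging 1 FPKM or more, adjusted by Benjamini-Hochberg over all of them, at a threshold of 0.05. This scale understates the change of weakly expressed genes. The fit was tested on simulated data. No libraries were duplicates: the chi-square per degree of freedom was 3.61 to 13.2 within groups and 16.4 to 28.4 between them. Members and lists were chosen with earlier results of these data known. Named with values are the called members, the highest member of each type and cluster, the 2 members on each side of the filter, up to 4 genes per list by lowest adjusted p, and DAB2IP. Of the S phase list, 1 gene that the rule would name is not reported here. Alternatives were other pseudocounts, filters, scalings and limma settings, limma-voom on recovered reads, a replicate block, and leaving out each library. Merging HIST2H2AA3 with HIST2H2AA4 was chosen after seeing the data.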

Additional observations from a re-analysis of the deposited data

How the results depend on the processing

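HIST1H2BH was called under every alternative in which it was tested, while HIST2H2AA3 and HIST1H3H were not. The count of histone genes called ran from 1 to 4 with 1 library left out, and it was 1, HIST1H2BH, without empty vector-labelled replicate 2 and without DAB2IP O/E-labelled replicate 1 or 3. The same step gave 956 to 2731 for all genes, 2 to 4 for histone mRNA processing genes, 0 to 2 for replacement histones, 0 to 9 for chaperones and 3 to 10 for S phase genes. The replicate block called 4 histone genes, adding HIST3H2A (adjusted p = 0.0312 by limma), with 1 replacement histone and 5 chaperones. Among all 14761 genes tested it called 2393. Deviations of libraries with the same number correlated at 0.120, 0.0992 and 0.0576, so the numbers were not taken to pair the libraries, although each library correlated best with its own number. Chaperone calls were 4 with no filter, beside 2360 of 27104 genes in all. Replacement histone calls were 2 without a trend, beside 2579 of 14761. Limma-voom with a filter on reads called 4499 of 19303 genes. Equal library medians moved the split of all genes from 1371 higher and 1354 lower to 1165 and 1686. Of the 2 highest members, HIST1H1C and HIST1H2BK, only HIST1H2BK is an H2B gene. Without it, the log2 ratio of summed H2B moved from -0.04 to -0.11. With 1 library left out, the log2 ratio of the summed members ran from -0.03 to 0.10 and that of summed H1 from -0.00080 to 0.28, so both changed sign. Among single genes, those that changed sign were members near 0 that never passed: HIST4H4 was at -0.020 with limma-voom on the same genes and at -0.025 with its read filter, and with 1 library left out HIST4H4 ran from -0.10 to 0.17, HIST1H2AM from -0.16 to 0.18, HIST1H2BD from -0.10 to 0.052, HIST1H2BK from -0.012 to 0.080 and HIST2H4A from -0.037 to 0.084. The causes were not tested. Members with under 60 reads in all allow no statement on small differences.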
